A study of Mus musculus with 2 samples.

Results

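The Ly49 receptors are the killer cell lectin-like receptors of subfamily A, and 8 of their genes were followed here in single thymic invariant natural killer T (iNKT) cells: Klra1, Klra3, Klra4, Klra5, Klra6, Klra7, Klra8 and Klra9. They were taken by name, as 8 of the 32285 gene rows of the deposited matrix. iNKT cells carry a semi-invariant T cell receptor that sees lipids on CD1d, and in the thymus they pass from stage 0 to stage 3, where they acquire NK1.1 and other receptors of natural killer (NK) cells. The study sorted TCRβ+ CD1d tetramer+ thymocytes as stage 0 cells (CD24+ NK1.1-) and as stage 3 cells (NK1.1+ CD24- CD44+). The cells came from Ctrl mice and from T-KO mice, in which floxed Kidins220 is deleted by a Cre driven by the proximal Lck promoter, active from an early double-negative stage of T cell development. For each genotype the cells of 4 thymi were pooled. The mice were labelled C57BL/6, and the labels state no age. Each sort was run 2 times in parallel, and the 8 resulting populations were marked with hashtag antibodies, mixed and sequenced as 1 droplet library read from the 5′ end of transcripts.

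No source used here says which population carries which of the hashtag rows that hold the counts, numbered 11 to 18, so no row was given a stage or a genotype. The rows are therefore 8 single values and not replicates of a group, no test was run between them, and no value below compares Ctrl with T-KO. Of 16179 barcodes, 12147 had at least 1000 genes and at most 5% mitochondrial UMIs (unique molecular identifiers, the counted molecules). A further limit, at least 80% of at least 10 hashtag UMIs on 1 row, left 10007 cells, with 577 to 2162 cells and 2283162 to 14601545 UMIs in a row. The 4 even rows had a median of 3258 to 3804 UMIs per cell and the 4 odd rows 6500 to 8068. The sums of 7 markers of stage 3 iNKT1 cells were 3226 to 3584 CPM (UMIs of a gene per 1000000 UMIs) in even rows and 221 to 274 CPM in odd rows, and all 7 were higher in every even row. Markers of B cells and of myeloid cells were higher in the odd rows (417 to 968 CPM and 2201 to 6239 CPM) than in the even rows (30.0 to 53.0 CPM and 253 to 373 CPM), so the odd rows were mixtures. In the even rows 3, 5, 15 and 27 cells of rows 12, 14, 16 and 18 held a UMI of Ncr1 or Eomes, which mark NK cells. In rows 16 and 18 these cells had little Cd3e (281 and 244 CPM), and some results below are also given without them. All intervals are exact 95% intervals (Poisson for levels, Clopper-Pearson for shares) and cover counting error only. For cells holding both members of a pair the interval is Poisson on their number, with the expected number taken as fixed. This interval is too wide where a gene is in a large share of cells, as Klra9 is. An interval that includes 1 there does not show that the genes are independent. The intervals of levels take UMIs as independent, so they are too narrow where a cell holds several UMIs of a gene.

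Ly49 receptors are lectin-like dimers on NK cells and on some T cells. Most of them bind MHC class I molecules and carry an inhibitory motif that recruits the phosphatase encoded by Ptpn6. Klra4 (Ly49D) and Klra8 (Ly49H) encode activating members that signal through the adaptor encoded by Tyrobp. Of the inhibitory members studied here, Klra1 encodes Ly49A, Klra3 Ly49C, Klra5 Ly49E, Klra6 Ly49F, Klra7 Ly49G and Klra9 Ly49I. In NK cells each member is known to be switched on in a fraction of the cells, so that neighbouring cells carry different combinations. The genes lie beside each other in the NK gene complex. In the GENCODE annotation of GRCm38 (the assembly named mm10 by the study) all 8 are on the minus strand of chromosome 6, in the order Klra5 (chr6:129898996-129917650), Klra6 (chr6:130013033-130026954), Klra4 (chr6:130043731-130067271), Klra8 (chr6:130115226-130129898), Klra9 (chr6:130178675-130193112), Klra7 (chr6:130218605-130233322), Klra3 (chr6:130323289-130337574) and Klra1 (chr6:130363917-130386874).

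Because these genes are close copies, it was computed how many 91-base stretches of their coding transcripts also occur in transcripts of other Klra genes or pseudogenes. None did for Klra1, Klra4, Klra5 and Klra6. The share was 2.67% for Klra3, 3.17% for Klra7 and 6.03% for Klra9, and 0% for each of these 3 among stretches that start in the first 300 bases, where reads of this library begin. For Klra8 it was 15.9%, and 52.3% at the 5′ end, shared with the pseudogene Klra14-ps or with Klra9, so its counts are uncertain. UMIs mark 5′ ends and were not divided by transcript length, and levels are compared between rows or classes of cells and not ranked between genes.

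The upstream sequences are shown for 3 members, because the pair with the most similar sequence, Klra9 and Klra3, differed in its pattern over the rows, and because Klra1 stands apart in sequence and in its distribution over cells. They are RefSeq windows of GRCm38.p6, 5′ to 3′ on the strand of the gene. The line for Klra9 (chr6:130193133-130193362) ends 20 bases before its RefSeq start, and that for Klra3 (chr6:130337628-130337860) ends 1 base before its own. The RefSeq start of Klra3 lies upstream of the GENCODE start given above (position 130337574). In both lines capitals mark bases that are substituted or unpaired in the alignment of the pair. In the line for Klra1 (chr6:130386875-130387124, up to the annotated start) capitals mark the RUNX core motif TGTGGT.
Klra9: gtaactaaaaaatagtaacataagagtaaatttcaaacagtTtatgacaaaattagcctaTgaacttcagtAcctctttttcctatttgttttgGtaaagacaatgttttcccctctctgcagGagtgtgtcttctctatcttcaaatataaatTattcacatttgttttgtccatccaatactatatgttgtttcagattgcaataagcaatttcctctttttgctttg
Klra3: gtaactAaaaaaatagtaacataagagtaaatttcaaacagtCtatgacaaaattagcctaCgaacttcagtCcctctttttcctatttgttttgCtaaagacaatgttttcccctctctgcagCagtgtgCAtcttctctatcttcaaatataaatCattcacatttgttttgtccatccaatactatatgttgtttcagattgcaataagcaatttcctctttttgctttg
Klra1: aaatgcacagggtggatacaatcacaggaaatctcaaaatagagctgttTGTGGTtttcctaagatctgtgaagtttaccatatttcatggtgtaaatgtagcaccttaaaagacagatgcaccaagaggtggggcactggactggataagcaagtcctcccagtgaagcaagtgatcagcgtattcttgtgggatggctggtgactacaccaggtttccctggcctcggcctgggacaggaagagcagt

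The alignment of Klra9 with Klra3 had 233 columns, of which 224 were identical (96.1%), 6 were substituted and 3 were unpaired. Over the 28 pairs of members, the identity of whole 250-base windows had a median of 61.6% and ran from 53.2% to 90.0%, the last being that same pair. For Klra5 the window (chr6:129913225-129913474) lies inside the GENCODE gene given above, so it is upstream of its RefSeq start only. The motif TGTGGT, searched on both strands, was in the window of Klra1 and in none of the other 7, and 14.05% of all 32851 windows of this length held it. The TCF motifs CTTTGA or CTTTGT were in the windows of Klra6, Klra7 and Klra9 (27.6% of all windows), and the T-box motif TCACAC was in none of the 8 (12.3% of all windows).

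The 7 members other than Klra4 were higher in each even row than in each odd row. Of the 11691 genes with at least 100 UMIs over the 8 rows, 23.0% had this order. These 7 members had that many UMIs, and for 6 of them the median of the even rows was also at least 2-fold that of the odd rows after adding 10 CPM, as it was for 5.00% of all genes. Klra9 had 714, 762, 279 and 295 CPM in rows 12, 14, 16 and 18. In the odd rows it had 7.59 to 11.7 CPM. Klra7 had 204, 197, 96.8 and 148 CPM in the same 4 even rows, against 1.71 to 4.31 CPM in odd rows. Klra9 and Klra7 were therefore higher in rows 12 and 14 than in rows 16 and 18, with intervals that did not overlap.

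Klra3 had 148, 192, 175 and 191 CPM in rows 12, 14, 16 and 18, and it was lowest in row 12, the row with the second highest Klra9. Klra1 had 139, 170.2, 103 and 149 CPM, with row 16 lowest and the intervals of rows 12 and 18 overlapping. Klra5 lay between 30.3 and 40.3 CPM, Klra6 between 18.4 and 39.7 CPM and Klra8 between 6.57 and 14.6 CPM in the even rows. Klra6 and Klra8 were highest in row 14 and lowest in row 16. Klra4 had 1 UMI in each even row and none in any odd row. Its level in the even rows, 0.137 to 0.438 CPM, was under the limit that a count of 0 allows (3 UMIs, 0.410 to 1.31 CPM). So of the pair of activating members, Klra4 was not detectable above that limit at this depth. Klra8 had 219 UMIs in the even rows, but these counts are uncertain because its 5′ end shares sequence with Klra14-ps or Klra9.

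How far the even rows differed set the members apart. The highest even row was 2.73-fold the lowest for Klra9, 2.11-fold for Klra7, 2.16-fold for Klra6 and 2.23-fold for Klra8, but 1.30-fold for Klra3 and 1.33-fold for Klra5. With 10 CPM added, which damps low genes, Klra9 (2.67-fold) and Klra7 (2.00-fold) reached 2-fold, as did 0.553% of the 9399 genes with at least 100 UMIs in even rows. The summed level of the 8 members was 1286, 1415, 711 and 842 CPM in rows 12, 14, 16 and 18. Klra9 made up 55.5%, 53.9%, 39.3% and 35.1% of these UMIs and Klra3 11.5%, 13.6%, 24.6% and 22.7%, so the makeup of the family differed between rows, not only its sum.

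**Figure D1:**
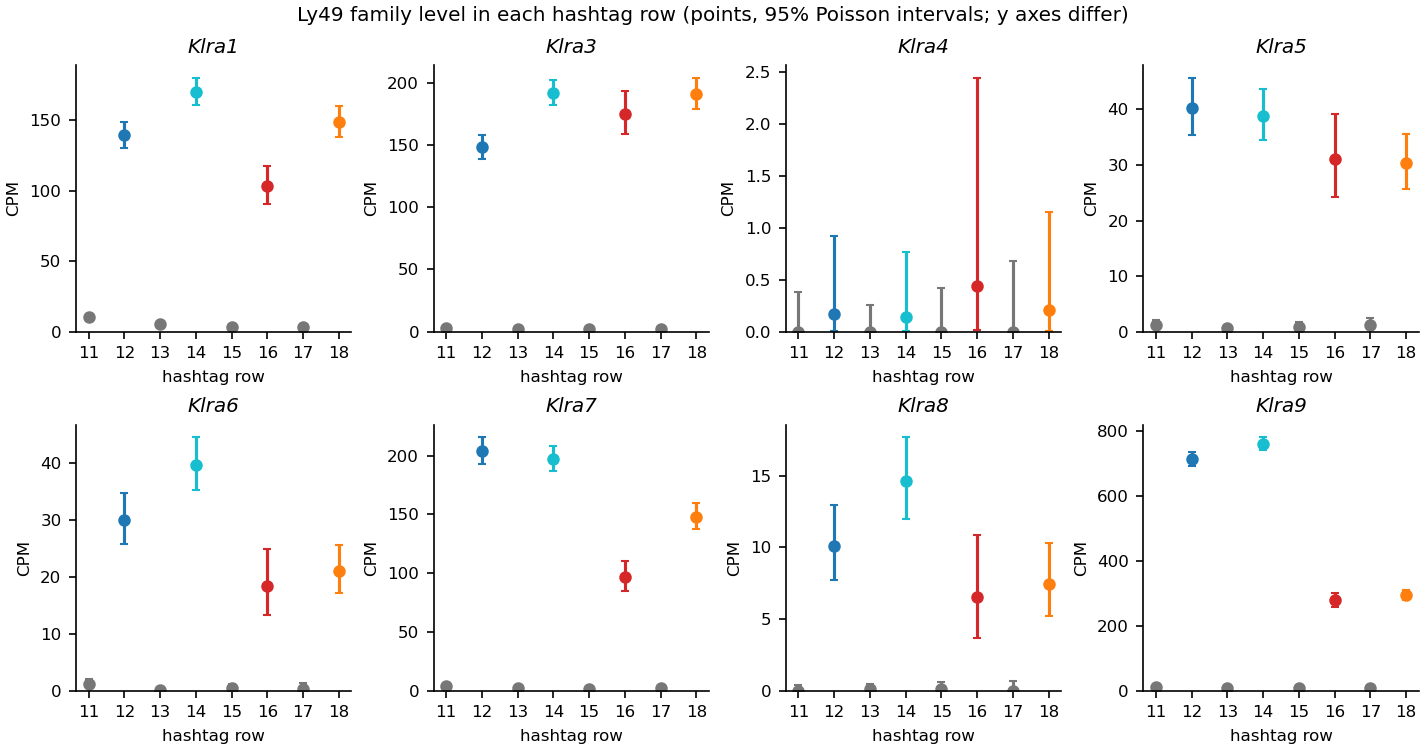
Level of each Ly49 member (CPM, linear axes that differ between panels) in hashtag rows 11 to 18, with exact 95% Poisson intervals; odd rows are grey. Klra9 and Klra7 are highest in rows 12 and 14, Klra3 is similar in rows 14, 16 and 18, and Klra4 has 1 UMI in each even row.

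3 further genes of the family have rows in the matrix. Klra10, whose transcript shares 8.32% of its 91-base stretches with other Klra genes, had 28.1, 26.5, 6.13 and 9.69 CPM in rows 12, 14, 16 and 18, also higher in rows 12 and 14. Klra2 and Klra17 had 1 and 5 UMIs in all even rows together.

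In the odd rows the low Ly49 counts were set against cells that should lack these genes. Among odd-row cells with a B cell gene (Cd79a or Cd79b) and no T cell gene (338 cells, median 6372 UMIs), 6.21% held a UMI of Klra9. Among odd-row cells with a T cell gene and neither B cell genes nor Lyz2 (2233 cells, median 5790 UMIs) the share was 6.58%. The intervals of these shares overlapped, so Klra9 in odd-row T cells was read as background. Klra3 was likewise at 1.78% and 1.66%. Klra7 was at 0.888% (0.183 to 2.57%) of the B cells and 2.28% (1.71 to 2.99%) of the T cells, 1 of which held 10 UMIs. Klra1 was different, at 0.296% (0.00749 to 1.64%) of the B cells and 3.40% (2.69 to 4.24%) of the T cells. These T cells held 187 UMIs of Klra1, 10 of them had at least 5 UMIs and the highest had 33, whereas none of them had 5 UMIs of Klra9. The 1 odd-row cell with at least 5 UMIs of Klra9, in row 11, held 11, had both T cell and B cell genes and so belongs to neither set. Rows 11, 13 and 15 held 5, 3 and 2 of the 10 cells and row 17 held none.

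Within the even rows, Ly49 transcripts were unevenly spread over cells. Each cell was thinned to 2000 UMIs, leaving out 127, 195, 68 and 162 shallower cells of rows 12, 14, 16 and 18. Klra9 was then found in 65.0%, 64.9%, 29.5% and 30.8% of the cells of these rows (73.9%, 73.4%, 36.6% and 36.9% without thinning). A thinned cell with Klra9 had on average 2.21, 2.41, 1.95 and 1.90 UMIs of it. Between the highest and the lowest row the share of cells thus differed 2.21-fold and the UMIs per positive cell 1.27-fold. Klra3 was found in 17.7%, 20.4%, 18.7% and 19.2% of thinned cells, with overlapping intervals in all rows. Klra7 was in 22.0%, 20.8%, 12.6% and 16.2%, and Klra1 in 13.2%, 14.5%, 8.06% and 11.5%. Klra5 was in 4.32% to 6.28%, Klra6 in 1.96% to 6.00% and Klra8 in 0.786% to 2.14% of the cells. In odd rows no member was found in more than 2.69% of thinned cells.

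The unevenness was measured by setting the unthinned share of cells with a UMI against the share expected if all cells of a row had the level of that row, given the depth of each cell. The ratio was 0.313 to 0.413 over the 4 even rows for Klra1, 0.475 to 0.553 for Klra3, 0.488 to 0.558 for Klra7 and 0.454 to 0.625 for Klra5. These 4 members stayed at or under 0.7 in every even row. Of the 6654 genes whose expected share lay between 5% and 95% in all even rows, 0.301% did so (20 genes), and the median gene had a ratio of 0.989. These genes were not matched to the members in level. Klra6 (0.621 to 0.810) and Klra9 (0.573 to 0.832) passed 0.7 in at least 1 row, and Klra8 and Klra4 were too rare to be counted. In Klra9 the row decided the ratio, which was 0.818 to 0.832 in rows 12 and 14 and 0.573 to 0.576 in rows 16 and 18. Cells with Klra1 held on average 3.12, 3.47, 3.69 and 4.35 UMIs of it in rows 12, 14, 16 and 18 without thinning, and 1 cell held 38. Cells with Klra9 held 3.34, 3.51, 3.02 and 3.07 UMIs of it, so the rows differed more in the share of cells with Klra9 than in its UMIs per positive cell. UMIs per positive cell cannot fall below 1, so at these low counts the measures are not on the same footing.

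Other receptors of the NK gene complex served as a comparison. Klrb1c, which encodes NK1.1, the marker of the stage 3 sort, had ratios of 0.908 to 0.960. All populations were sorted on NK1.1, as positive or as negative cells, so the spread of Klrb1c within a row is tied to the sort. Klrd1, which encodes CD94, the partner chain of the NKG2 receptors, had 0.876 to 0.921. Klrc1, which encodes the inhibitory NKG2A chain, was as unevenly spread as Klra3 and Klra7, at 0.481 to 0.530. Klrk1, which encodes the activating receptor NKG2D, had 0.744 to 0.791.

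**Figure D2:**
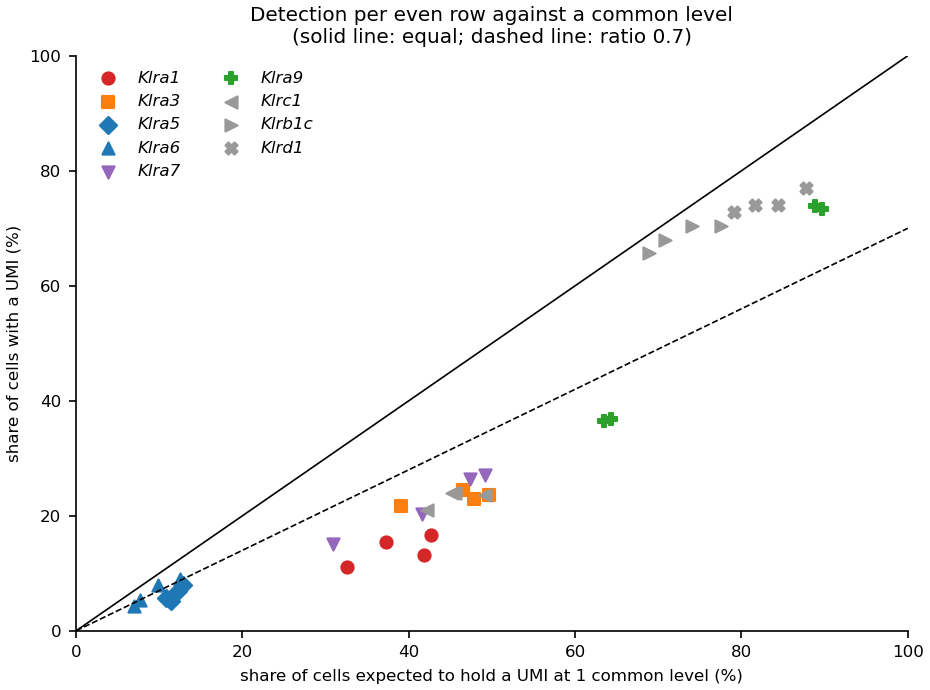
Share of cells with a UMI (y axis, %) against the share expected if all cells of the row had the same level (x axis, %), 1 point for each of the 4 even rows per gene; the solid line marks equal shares and the dashed line a ratio of 0.7. Klra1, Klra3, Klra5, Klra7 and Klrc1 lie below the dashed line in all rows, and Klrb1c and Klrd1 lie near the solid line.

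More members per cell were found in rows 12 and 14 than in rows 16 and 18. After thinning, 21.0%, 21.4%, 50.1% and 48.1% of the cells of rows 12, 14, 16 and 18 held no Ly49 UMI. Exactly 1 member was seen in 41.7%, 38.8%, 29.1% and 27.9%, and at least 2 members in 37.4%, 39.9%, 20.8% and 24.0%. At least 3 members were seen in 4.32% to 12.3% of the cells of a row. The mean number of members per cell was 1.31, 1.33, 0.758 and 0.855. Without thinning 15.7% to 43.3% of the cells of a row held none. A member can be missed in a shallow cell, and a UMI from another cell can be counted, so these shares are not shares of cells that lack the transcripts.

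**Figure D3:**
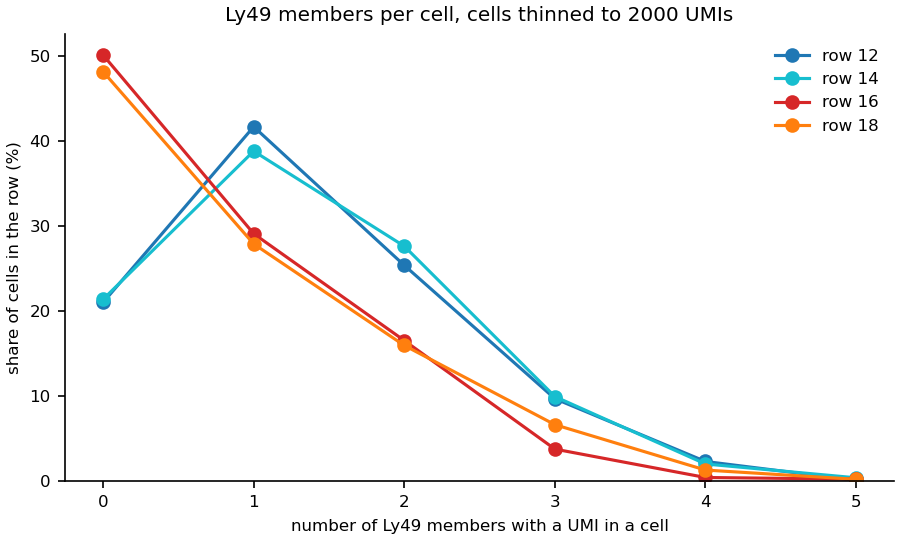
Share of cells (y axis, %) with 0 to 5 Ly49 members detected (x axis) in the 4 even rows, after thinning each cell to 2000 UMIs. Rows 12 and 14 peak at 1 member, and rows 16 and 18 at none.

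To see whether members were found in the same cells, the number of thinned cells with both members of a pair was divided by the number expected from the single shares of each even row. A ratio of 1 means that the 2 members were found together as often as independent ones would be. Over the 21 pairs that do not involve Klra4, the ratio had a median of 1.36 and ran from 0.865 to 2.28. It was above 1 in 19 pairs and above 1 in all 4 rows in 11. The interval lay above 1 in 11 pairs and below 1 in none. For comparison, the 15 pairs of 6 other NK complex receptors (Klrb1c, Klrc1, Klrc2, Klrd1, Klre1 and Klrk1) had a median of 1.03, from 0.908 to 1.34. Of these 15 pairs, 7 were above 1 in all 4 rows. Klrb1c, Klrd1 and Klrk1 were each in 43.7% to 64.6% of the thinned cells of a row. This limits how high the ratios of their pairs can be, so the medians are not on the same footing. For the 7 pairs with Klra4, found in 1 thinned cell, no ratio is given.

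The 2 highest ratios involved Klra6. Klra1 and Klra6, which lie apart in the cluster with the other members but Klra5 between them, were found together in 72 cells, 2.28 times the expected number (interval 1.79 to 2.88), with 2.26 to 2.48 in the single rows. Klra6 and Klra7 were together in 103 cells, a ratio of 2.16 (1.77 to 2.63). Klra1 and Klra8 followed at 1.85 (1.14 to 2.82, on 21 cells, above 1 in 3 rows), and then Klra5 and Klra6 at 1.74 (1.08 to 2.66), also on 21 cells. Klra1 and Klra7 had 1.48 (1.28 to 1.70). The ratio of Klra7 and Klra9 was 1.36 (1.27 to 1.46) over 779 cells, with 1.24 and 1.26 in rows 12 and 14 and 2.28 and 2.09 in rows 16 and 18. A pair with Klra9 cannot pass 1.54 in rows 12 and 14, where Klra9 was in about 65.0% of the cells, but could reach 3.39 and 3.25 in rows 16 and 18, so these row values are not on the same footing.

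The pairs with Klra3 had low ratios when the 4 even rows were pooled. Their median was 1.07 (0.865 to 1.16), and the interval of each of the 6 included 1, as did those of 4 of the 15 other pairs. Without thinning their median was 1.10, and the intervals of 3 of the 6 lay above 1, those of Klra3 with Klra6 (1.35, 1.13 to 1.60), Klra7 (1.13, 1.02 to 1.25) and Klra9 (1.08, 1.01 to 1.15), as did those of 14 of the 15 others. For Klra3 and Klra9, the pair with the most similar upstream sequences printed above, 571 cells held both and the ratio was 1.06 (0.972 to 1.15). This interval is too wide, as stated above, because Klra9 is in many cells. In rows 12, 14, 16 and 18 the ratio was 0.937, 1.05, 1.14 and 1.40, under the different limits for Klra9 given above. In row 18 Klra3 had 1.03 with Klra1, 1.30 with Klra5, 1.54 with Klra6, 1.25 with Klra7 and 0.434 with Klra8. For Klra1 and Klra3 it was 0.865 (0.712 to 1.04), below 1 in rows 12, 14 and 16. The 15 pairs without Klra3 had a median of 1.43 (1.09 to 2.28).

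**Figure D4:**
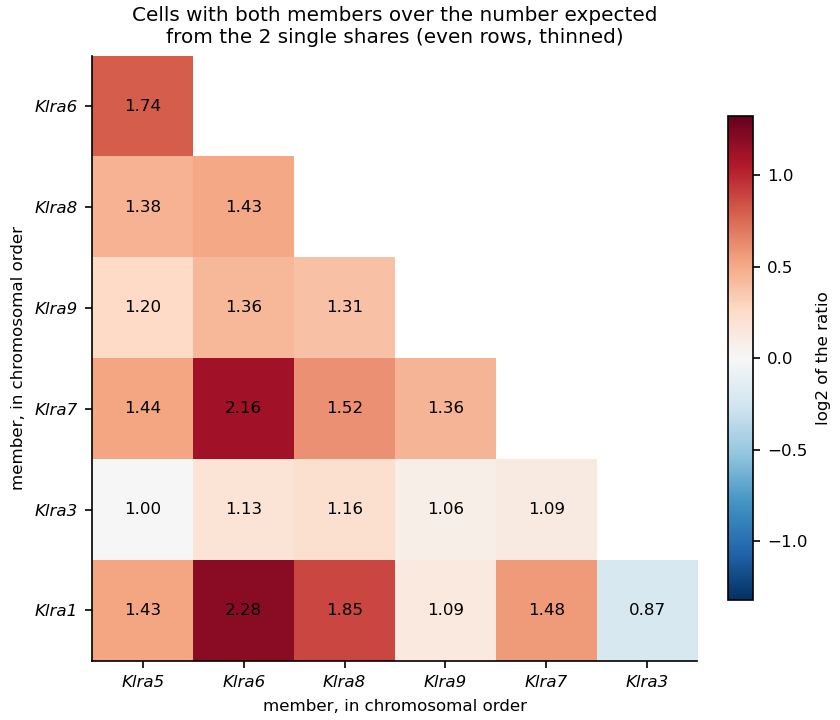
Number of thinned even-row cells with both members divided by the number expected from the single shares, for 21 pairs of 7 members ordered along the chromosome; colour gives log2 of the printed ratio. Klra1 with Klra6 (2.28) and Klra6 with Klra7 (2.16) are highest, and the pairs with Klra3 lie between 0.87 and 1.16.

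The ratios were also taken within 2 classes of cells, which are defined below. Among Ccl5-high cells the median over the 21 pairs was 1.11. There Klra6 and Klra7 had 1.98 (1.19 to 3.09), Klra1 and Klra6 1.92 (0.994 to 3.36, on 12 cells) and Klra7 and Klra9 1.20 (1.04 to 1.38), while Klra1 and Klra9 had 0.960 (0.783 to 1.17). Among Izumo1r+ Ccl5-negative cells the median was 1.39, with 2.25 (1.12 to 4.02) for Klra1 and Klra6 and 1.56 (1.19 to 2.01) for Klra7 and Klra9. With at most 2500 genes per cell the median over all even-row cells was again 1.36. Doublets of cells with the same hashtag were not called, and their part in the ratios was not tested.

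With receptors outside the family, the ratio of each member with Klrb1c or Klrd1 lay between 0.899 and 1.15, Klra4 left out, and each interval included 1. All populations were sorted on NK1.1, which Klrb1c encodes, as positive or as negative cells, so the ratios with Klrb1c say little about the members. Klre1, which encodes another lectin-like NK receptor, was found with 6 of the 7 members more often than the single shares give, with intervals above 1. These were Klra5 (1.72), Klra8 (1.71), Klra7 (1.64), Klra6 (1.60), Klra1 (1.31) and Klra9 (1.21), and Klra3 had 1.00 (0.876 to 1.15). Klrc2 had intervals above 1 with Klra5 (1.34), Klra6 (1.29), Klra7 (1.23) and Klra9 (1.08), and Klrk1 with Klra7 (1.10). Klrc1 was found above the expected number with Klra8 (1.76, 1.18 to 2.52, on 29 cells) and Klra5 (1.50, 1.18 to 1.87). With Klra6 (0.747, 0.517 to 1.04), Klra1 (0.842, 0.692 to 1.02) and Klra3 (0.872, 0.745 to 1.01) it was found less often, within intervals that included 1.

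The even rows were then divided by 2 genes that mark different thymic iNKT cells. Ccl5 encodes a chemokine of cytotoxic and memory-like lymphocytes, and Izumo1r encodes a folate receptor family protein. Ccl5-high cells had at least 4 UMIs of Ccl5 and numbered 380, 409, 91 and 171 in rows 12, 14, 16 and 18. Izumo1r+ Ccl5-negative cells had at least 2 UMIs of Izumo1r and none of Ccl5 and numbered 98, 164, 72 and 204. The remaining 70.4% to 73.5% of each row fell in neither class. Both genes chose the classes and are no result. Median UMIs per cell were 3423 to 3964 in the first class and 3476 to 4483 in the other.

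The members did not move together between the classes. Klra5, Klra7, Klra8 and Klra9 were higher in Ccl5-high cells in all 4 even rows, Klra6 was lower in all 4 (in row 16 through 1 cell), and Klra1 and Klra3 were lower in 3. Of the 9399 genes tested, 8.93% were higher in all 4 rows and 11.7% lower. None of the 7 members reached 2-fold in every row, as 0.192% of all genes did. The median of the members' median log2 ratios (of CPM + 10) was 0.51, and that of all genes was -0.02.

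With 10 CPM added, Klra5 had the largest median difference. It had 65.1, 52.4, 48.7 and 57.4 CPM in Ccl5-high cells of rows 12, 14, 16 and 18. In Izumo1r+ Ccl5-negative cells it had 15.6, 23.6, 0 and 15.0 CPM. The 2 sets of values did not overlap, and in row 16 the class with no UMI puts Ccl5-high cells at least 5.93-fold higher, taking 3 UMIs in the class as the limit. The log2 ratio was 0.89 to 2.55 over the rows, with a median of 1.49.

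Klra8 had 21.0, 22.3, 17.9 and 9.79 CPM in Ccl5-high cells and 2.61, 1.69, 13.7 and 1.15 CPM in the other class, on 1, 1, 5 and 1 UMIs, so the size of its difference is poorly known. The 5 UMIs of row 16 were in 1 cell. Its median log2 ratio was 1.06, but with 1 CPM added it was 2.47, against 1.93 for Klra5. Klra7 had 224, 239, 151 and 232 CPM against 143, 235, 49.3 and 101 CPM. In row 14 this difference was within counting error (log2 ratio 0.03) and in the others it was 0.61, 1.44 and 1.12. Klra9 had 802, 824, 430.2 and 413 CPM against 693, 762, 139.5 and 232 CPM. Its log2 ratio was 0.21 and 0.11 in rows 12 and 14, where the intervals of the classes overlapped, and 1.56 and 0.81 in rows 16 and 18, where they did not. The share of cells with Klra9, after thinning, was 73.0% against 63.9% in row 12 and 43.3% against 20.7% in row 18.

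Klra6 went the other way. It had 27.5, 30.1, 20.5 and 18.2 CPM in Ccl5-high cells and 41.7, 67.6, 35.6 and 27.7 CPM in Izumo1r+ Ccl5-negative cells, a median log2 ratio of -0.52. Only in row 14 did the intervals not overlap. The 13 UMIs of Klra6 in Izumo1r+ Ccl5-negative cells of row 16 came from 2 cells, 1 of which held 10, and without that cell the level there was 8.55 CPM, below the 20.5 CPM of Ccl5-high cells. After thinning, the share of cells with Klra6 was 4.55%, 3.73%, 4.40% and 2.34% in Ccl5-high cells of rows 12, 14, 16 and 18 and 7.22%, 12.7%, 1.41% and 2.53% in the other class, so row 16 went the opposite way by that measure. Klra3 had 137, 183, 197 and 179 CPM against 222, 265, 153 and 222 CPM, with row 16 opposite to the others. Klra1 had 182, 164, 136 and 134 CPM against 237, 187, 49.3 and 239 CPM, again with row 16 opposite and a log2 ratio of 1.30 there. After thinning, 17.6%, 15.4%, 13.2% and 9.94% of Ccl5-high cells held Klra1, against 19.6%, 13.9%, 2.82% and 14.1% in the other class. By that measure row 14 also went the opposite way, and without thinning row 12 did too (20.8% against 20.4%). In Izumo1r+ Ccl5-negative cells, 1 cell held 10 of the 18 UMIs in row 16 and 1 held 34 of 207 in row 18. Without that cell the level was 22.2 CPM in row 16 and 202 CPM in row 18. For the sum of the 8 members the log2 ratio was 0.10, -0.03, 1.17 and 0.31, and its median of 0.21 became 0.10 without row 16 or row 18 and 0.31 without row 12 or row 14.

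**Figure D5:**
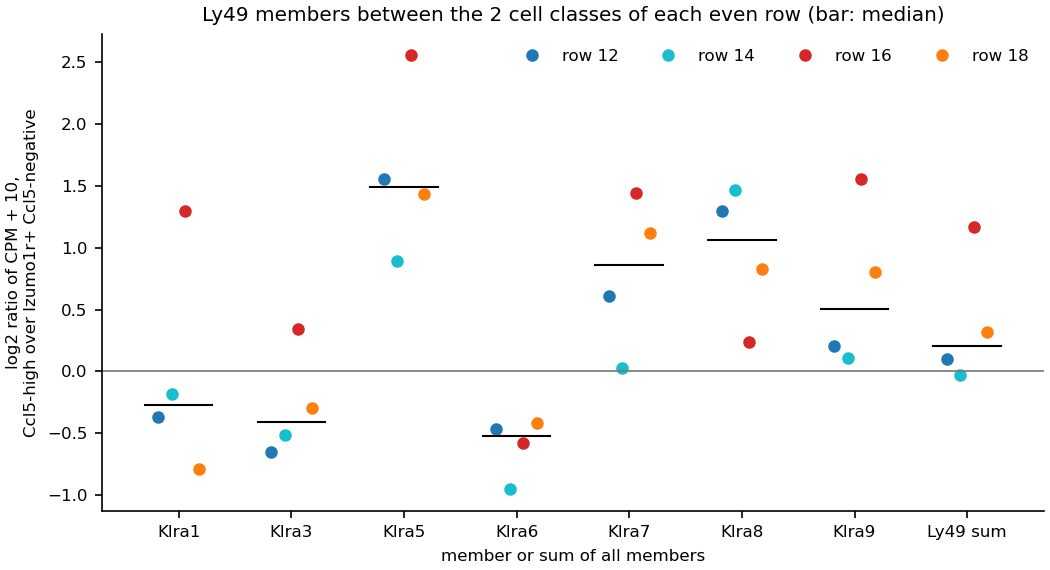
Log2 ratio of CPM + 10 in Ccl5-high over Izumo1r+ Ccl5-negative cells (y axis) for 7 Ly49 members and the sum of all 8, 1 point for each even row and a bar at the median. Klra5, Klra7, Klra8 and Klra9 lie above 0 and Klra6 below 0 in every row (in row 16 through 1 cell), and row 16 stands apart for Klra1.

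Among 13 other receptor genes of the NK complex, 10 had enough UMIs. Of these, 5 were higher in Ccl5-high cells in all 4 rows, 1 was lower, and the median log2 ratio was 0.71. Klrc1 had the largest median ratio (1.87 to 2.42 over the rows) and was the one that passed 2-fold in every row. Klre1 (median 1.28), Klrk1 (0.93), Klrc2 (0.83), which encodes the activating NKG2C chain, and Klrc3 (0.49) were also higher, and Klrb1c was lower (-0.26). Klrd1 was lower in 3 rows (median -0.09). Without the cells holding Ncr1 or Eomes, the median of Klrb1f was 0.12 instead of 0.59, and the median over the list was not recomputed. Klrc1, Klre1, Klrk1, Klrc2 and Klrc3 stayed higher in all 4 rows.

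Of 8 adaptor and phosphatase genes tested, 3 were higher in all 4 rows and 3 were lower. Tyrobp, the adaptor of the activating members, had log2 ratios of 1.25 and 0.38 in rows 12 and 14 and of 3.54 and 3.45 in rows 16 and 18. Tyrobp was also high in the cells with Ncr1 or Eomes in rows 16 and 18 (2118 and 1942 CPM), of which 7 and 14 were Ccl5-high and none was in the other class. Without these cells its log2 ratios were 1.25, 0.37, 1.27 and 1.42 in rows 12, 14, 16 and 18. Fcer1g, another adaptor with an activating motif, had a median of 0.91 (0.72 without those cells) and Hcst, the adaptor of NKG2D, 0.29. The lower genes were Zap70 (-0.56), Cd247 (-0.38) and Ptpn6 (-0.27), which encode a kinase and a chain of T cell receptor signalling and the phosphatase recruited by inhibitory receptors. Without the cells holding Ncr1 or Eomes, Klra5 (1.47), Klra7 (0.88), Klra8 (1.10) and Klra9 (0.55) were still higher and Klra6 (-0.55) lower in all 4 rows.

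The class I genes H2-K1, H2-D1 and B2m, whose products form ligands of Ly49 receptors, had median log2 ratios of 0.00, -0.04 and -0.05, and none had the same direction in all 4 rows. Of 8 transcription factors tested, Runx3 was higher in all 4 rows (median 0.24), and Tox (-1.25), Lef1 (-0.50) and Id2 (-0.45) were lower. Nfil3 was higher in 3 rows (0.45), and in all 4 (0.43) without the cells holding Ncr1 or Eomes. Tbx21, which encodes T-bet, was higher in 3 rows (0.23) and Tcf7 lower in 3 (-0.10).

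Finally, the genes whose pattern was most like that of the summed members were looked up over 12 groups, the 4 even rows by Ccl5-high, Izumo1r+ Ccl5-negative and remaining cells, among 6227 genes with a mean of at least 20 CPM. The 12 groups share 1 library and 4 rows and are not independent. Hspa1b (Pearson r = 0.95) and Junb (0.95) came first, which encode a heat shock protein and a subunit of the AP-1 transcription factor. Ifitm10 (0.94), H2-Ke6 (0.93) and Flot1 (0.92), which encodes a membrane raft protein, followed. A value of at least 0.8 was reached by 78 genes, so these 5 are the top of a long list. Among the genes of the lists above, Hcst had 0.91 and Tbx21 0.85. Of the members themselves, Klra9 had 0.97 and Klra7 0.91 with the sum they belong to, and Klra3 had 0.24. Summing the members without Klra9 kept 2 of these 5 genes.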

How the data were processed

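Alignment and counting by the authors used Cell Ranger (6.0.0 per the file headers) with an mm10 reference, and the deposited values are raw UMI counts of genes and hashtags in each barcode. The submitters' processing notes also name Seurat. From these counts, cells were filtered and assigned to the hashtag rows 11 to 18 as described above (99.9% of hashtag UMIs lay on these rows), and UMIs were summed per row or class and divided by all gene UMIs (Python 3.11.15, numpy 2.4.6, scipy 1.17.1). The 8 row values are single values, so no p-value was computed. Barcodes on several hashtag rows were dropped as doublets, and doublets within a row were not called. Thinning drew 2000 UMIs per cell without replacement. Log2 ratios used a pseudocount of 10 CPM and genes with at least 100 UMIs. The calculations of the class ratio, the expected detection, thinning and co-detection were tested on simulated data, and the other steps were not. Named genes are the members, lists of NK complex receptors, adaptors, class I genes and transcription factors, and the 5 genes most like the summed members. Members and lists were chosen with earlier results of these data known. Alternatives were other cell filters, HTODemux (Seurat 5.3.0), thinning depths, thresholds, pseudocounts and scalings. Upstream windows came from RefSeq (GRCm38.p6, matched for 8 of 8 members by symbol, the outermost start where several are listed) and gene positions and transcripts from GENCODE. Alignments used Biopython 1.88.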

Additional observations from a re-analysis of the deposited data

Results flagged for a closer look

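Barcodes that passed the quality limits but were assigned to no hashtag row (2140), which enter no comparison above, held 7801 UMIs of the 8 Ly49 genes, or 385 CPM (376 to 393). This lies between the odd rows (15.9 to 32.1 CPM) and the even rows (711 to 1415 CPM). Of the 15 levels and shares checked over the 4 even rows, in none did 1 row lie far from the other 3.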

How the results depend on the processing

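The summed level in even-row cells, pooled, was 1163 CPM (1148 to 1178), and it left this interval with a hashtag share of at least 95% (1200 CPM) and when a row was left out (1023 to 1262 CPM). At least 1 member was found in 70.3% of the even-row cells thinned to 2000 UMIs, in 72.5% with a hashtag share of at least 95%, in 56.2% of cells thinned to 1000 UMIs, in 75.5% without thinning, in 48.8% when 2 UMIs counted as detected, and in 65.2% to 75.2% when a row was left out. The median co-detection ratio, 1.36, was 1.20 when 2 UMIs counted as detected and 1.11 in Ccl5-high cells, and 1.35 with both other thinning draws, which were added after seeing the data, as were the limit of 2500 genes, the Izumo1r+ class and the removal of cells with Ncr1 or Eomes or of the row 16 cell with the most Klra6. The median log2 class ratio of the sum, 0.21, was 0.062 with at least 2 UMIs of Ccl5 and 0.10 to 0.31 when a row was left out. Over 18 alternatives Klra5 was higher in every row in 18, Klra8 in 17, Klra9 in 17 and Klra7 in 15, and Klra6 was lower in 16; the median of Klra1 was above 0 in 1 (0.20, with a hashtag share of at least 95%). Of the 5 genes most like the sum, 2 were kept without Klra9. No paired analysis was possible because the rows are not matched to replicates. Depth limits Klra4, with 1 UMI in each even row, and Klra8, with 219 UMIs in all even rows.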
